A study of Mus musculus with 6 samples.

Results

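Extracellular matrix genes other than collagens were followed in innate lymphoid cells (ILCs) of mouse lung. The set held 46 of the 52636 genes in the count table: proteoglycans, elastic fibre and adhesive glycoproteins, growth factor binding matrix proteins, crosslinking enzymes and basement membrane components. They were chosen by name, with earlier results of these data known, and all 46 were found by their Ensembl identifiers. Shares over all genes are therefore set beside their counts as a description and not as a test. RNA sequencing had been done on 6 libraries, 3 from KLRG1-negative and 3 from KLRG1-positive ILCs. The second gate is called KLRG1-high in the sorting protocol. KLRG1 is an inhibitory lectin-like receptor that marks mature and inflammatory group 2 ILCs. Every library came from wild-type C57BL/6 mice that carry the Il4 4get reporter, a green fluorescent protein placed at the Il4 gene. All of these mice were given 500 ng of recombinant interleukin-33, an alarm cytokine that expands group 2 ILCs, into the peritoneum for 4 days and were killed on day 5. No group lacked interleukin-33, and the labels give no age. Cells were gated as lineage-negative and CD90-positive, and the stated sort purity was above 90%. CD90 is also carried by some fibroblasts, and the lineage panel was not named in the labels. Nothing in the labels tells if replicate libraries were made from different animals, and p-values therefore measure only the spread between libraries, which may be technical.

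The matrix is the protein network between cells. Small leucine-rich proteoglycans bind collagen fibrils and set their thickness, elastin is laid on a scaffold of fibrillin microfibrils and fibulins, and lysyl oxidases crosslink both. Nidogens join the laminin and collagen networks of basement membranes, the sheets beneath epithelium and around vessels. Matricellular proteins such as thrombospondins, SPARC and the CCN family act on cell adhesion and growth factors more than on tissue strength. In lung most of these genes are known chiefly from fibroblasts, smooth muscle, mesothelium and endothelium, and lymphocytes are not regarded as a main source.

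Libraries held 17323004 to 23946073 assigned counts. Levels are given in CPM, counts scaled by TMM to a common library total. Where a group had 0 counts, a floor of 3 counts summed across its libraries was used, which was 0.0508 CPM for KLRG1-positive and 0.0468 CPM for KLRG1-negative cells. Klrg1 itself followed the sort: KLRG1-negative libraries 1, 2 and 3 had 13.1, 193 and 73.2 CPM, and KLRG1-positive libraries 1, 2 and 3 had 1485, 1786 and 1327 CPM. The groups did not overlap, yet Klrg1 did not pass with edgeR (adjusted p = 0.0939, and 0.119 with the replicate number as a block). DESeq2 gave it an adjusted p of 1.42e-05. Summed over 7 group 2 ILC markers, levels were 1358 to 3399 CPM in KLRG1-negative and 6806 to 8707 CPM in KLRG1-positive libraries. The list was Gata3, Rora, Il1rl1, Il7r, Arg1, Il5 and Klrg1, so part of this gap was set by the sort on KLRG1. Arg1 was its most abundant gene, with means of 676 and 2361 CPM, and Il7r overlapped between the groups. None of these 7 passed with edgeR, and DESeq2 called 3 higher. Markers of other cells were present as well. Summed fibroblast markers were at 3232, 5164 and 9031 CPM in KLRG1-negative libraries 1, 2 and 3, and at 44.5, 22.4 and 16.7 CPM in KLRG1-positive libraries 1, 2 and 3. T cell markers summed to 3706, 1486 and 915 CPM against 308, 351 and 294 CPM, and B cell markers to 526, 644 and 4192 CPM against 128, 121 and 350.4 CPM. None of the 5 T cell and 6 B cell markers tested passed with edgeR, while 4 and 6 were lower at an unadjusted p under 0.05, 4 of each with DESeq2, and 3 and 4 with edgeR and the replicate number as a block. In bulk samples, fewer cells of a type and less RNA per cell cannot be told apart.

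Matrix transcripts were found mostly in the KLRG1-negative libraries. Together the 46 genes summed to 4569, 6512 and 9319 CPM in KLRG1-negative libraries 1, 2 and 3, or 0.457, 0.651 and 0.932% of the scaled total. In KLRG1-positive libraries 1, 2 and 3 they summed to 309, 249.8 and 119 CPM, or 0.0309, 0.025 and 0.0119%. In 42 of the 46 genes every KLRG1-positive library lay under every KLRG1-negative library, a pattern found in 15.2% of all 15197 genes tested, and the opposite held for 0 members and 9.46% of all genes. Values overlapped between the groups in the other 4, which were Vcan, Tnc, Thbs1 and Lamc1. The shares over all genes were taken after a filter on low counts. Through the KLRG1-negative libraries alone, 34 members passed that filter, so the count and the share are set side by side only as a description. The mean was at least 10 CPM in the KLRG1-negative libraries for 42 genes and in the KLRG1-positive libraries for 6, and it was under 1 CPM in the KLRG1-positive libraries for 25. Vcan, Fbn2 and Lox had no count in any KLRG1-positive library.

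**Figure D1:**
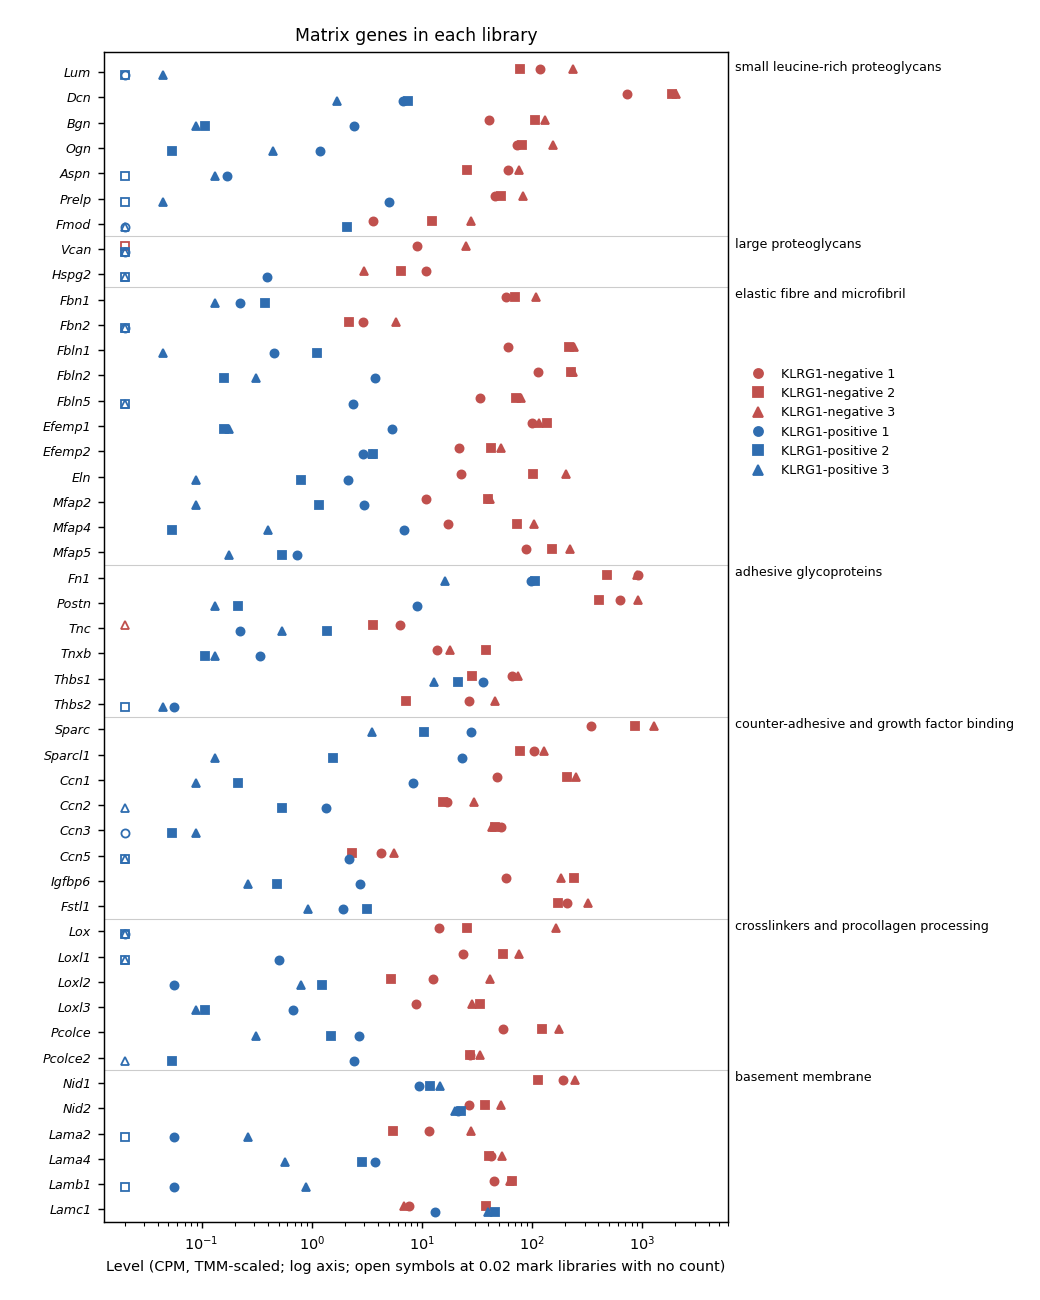
Level of each matrix gene (rows, grouped by role) in each of the 6 libraries, in CPM on a log axis; symbol shapes mark the replicate number and open symbols mark libraries without a count. Red KLRG1-negative symbols lie to the right of blue KLRG1-positive ones in 42 rows, and the 2 colours overlap for Vcan, Tnc, Thbs1 and Lamc1.

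Of the 46 genes, 45 passed the filter on low counts and were tested, and 34 of them passed it through the KLRG1-negative libraries alone, so those 34 entered the test only because they were high in that group. With edgeR's quasi-likelihood test, fitted without a replicate block, 14 were lower in KLRG1-positive libraries at an adjusted p under 0.05, where 1.21% of all genes tested were lower. None was higher, where 0.125% of all genes were, and 31 did not pass. Same-numbered libraries were read as paired from the data, as described with the processing, and this fit leaves that pairing out. With the replicate number as a block, 6 of the 14 passed. Below, a gene called lower was lower without the block unless another fit is named. The 14 were the proteoglycan genes Lum, Dcn, Ogn and Aspn, the elastic fibre genes Fbn1, Fbln1, Efemp2 and Mfap5, and Tnxb, Thbs2, Ccn3, Fstl1, Pcolce and Nid1. Among them only Dcn, Efemp2, Fstl1 and Nid1 reached the filter cutoff in every library. The others entered the test through the KLRG1-negative libraries alone. At an unadjusted p under 0.05, 40 were lower and 0 higher, beside 11.5% and 4.19% of all genes, and DESeq2 called 38 lower and 0 higher, against 9.11% and 2.29%. The log2 fold change was negative for 44 genes and positive for 1, beside 53.5% negative among all genes, and its median was -6.29 beside -0.05 over all genes. The median was also -6.29 with genes at 0 set to their bound and those with 1 to 3 KLRG1-positive counts set to their lower counting limit. Only Lum, Thbs2, Ccn3, Fbn2 and Lox were replaced, and all but Fbn2 stayed under the median, so it could hardly move.

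The number of calls depended on single libraries. Without KLRG1-positive library 1, 22 genes were lower, 10 of them among the 14, and 0 were higher, where 0.97% of all genes were lower and 0.0305% higher in that fit. Without KLRG1-negative library 1 there were 9 and without KLRG1-negative library 2 there were 2. Leaving out KLRG1-negative library 3 gave 0 calls with edgeR and 37 genes lower at an unadjusted p under 0.05. Leaving out library 2 or 3 of the KLRG1-positive group likewise gave 0 calls, with 39 and 37 lower at an unadjusted p. Over all fits that left libraries out, 0 to 168 genes in all were lower at an adjusted p under 0.05. At an unadjusted p under 0.05 those fits had 1159 to 1779 genes in all lower and 406 to 1048 higher. Except without KLRG1-positive library 1, the share over all genes is not given fit by fit. The member counts of the other fits therefore describe only how the calls varied. With the replicate number as a block, 6 members were lower, where 0.349% of all genes were, and all 6 belonged to the 14: Lum, Aspn, Fbn1, Thbs2, Ccn3 and Nid1. DESeq2 with the same block called 41 lower and 0 higher, against 11.2% and 4.01% of all genes.

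**Figure D2:**
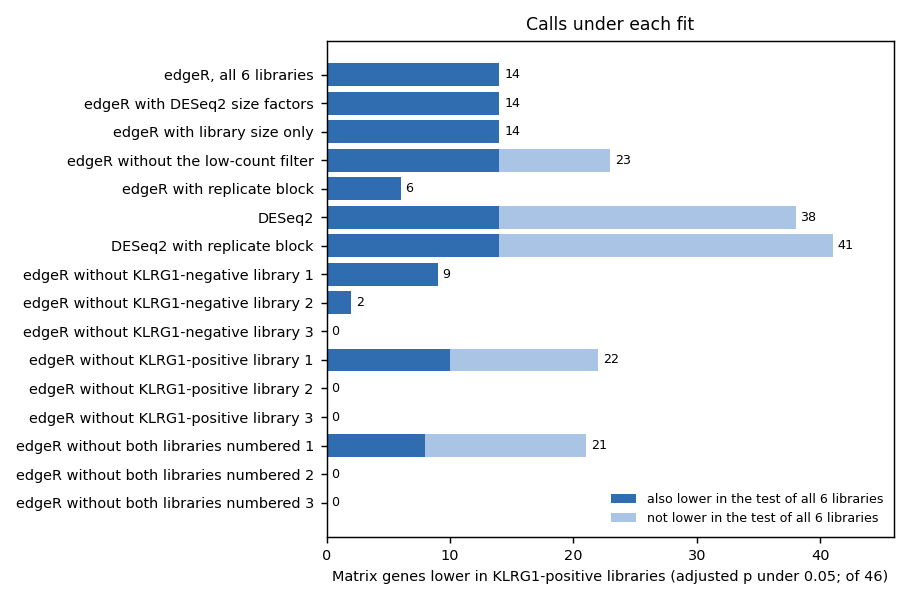
Number of matrix genes (of 46) lower in KLRG1-positive libraries at an adjusted p under 0.05 in each fit; dark bars count genes also lower in the test of all 6 libraries. Counts run from 0, in 5 of the fits that leave libraries out, to 41 with DESeq2 and a replicate block.

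Upstream sequence is shown for the genes lower both with and without the block and, because it neighbours Aspn, for Ogn. RefSeq promoters (build GRCm38.p6) were matched by symbol for 27 of the 46 genes, which is 58.7% and too few for a count over the set. Lum and Ccn3 had no match. Each line runs 5′ to 3′ on the gene's own strand over the 250 bases before the RefSeq start. Capitals mark matches, on either strand, to 6 motifs that are spelled out after the sequences.
Fbn1, chr2:125506439-125506688, minus strand: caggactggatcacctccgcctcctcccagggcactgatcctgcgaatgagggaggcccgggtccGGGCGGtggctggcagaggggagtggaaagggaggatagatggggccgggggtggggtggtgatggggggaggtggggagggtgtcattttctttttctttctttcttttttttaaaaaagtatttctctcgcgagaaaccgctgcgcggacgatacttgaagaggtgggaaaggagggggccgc
Nid1, chr13:13437352-13437601, plus strand: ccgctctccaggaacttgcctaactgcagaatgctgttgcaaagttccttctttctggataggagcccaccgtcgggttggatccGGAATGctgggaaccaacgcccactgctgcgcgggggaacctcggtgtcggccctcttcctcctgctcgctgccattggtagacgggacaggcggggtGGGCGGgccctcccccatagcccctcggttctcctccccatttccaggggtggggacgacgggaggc
Aspn, chr13:49544193-49544442, plus strand: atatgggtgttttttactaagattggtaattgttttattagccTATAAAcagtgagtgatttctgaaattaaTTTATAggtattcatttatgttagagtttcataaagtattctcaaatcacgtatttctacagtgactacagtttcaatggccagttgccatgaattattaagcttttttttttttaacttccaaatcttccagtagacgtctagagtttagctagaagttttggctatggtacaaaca
Ogn, chr13:49607765-49608014, plus strand: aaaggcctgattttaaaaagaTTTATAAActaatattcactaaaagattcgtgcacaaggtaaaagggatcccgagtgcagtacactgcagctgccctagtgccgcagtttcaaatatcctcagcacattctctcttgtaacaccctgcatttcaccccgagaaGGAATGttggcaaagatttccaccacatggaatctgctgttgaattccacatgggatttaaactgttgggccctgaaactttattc
Thbs2, chr17:14694263-14694512, minus strand: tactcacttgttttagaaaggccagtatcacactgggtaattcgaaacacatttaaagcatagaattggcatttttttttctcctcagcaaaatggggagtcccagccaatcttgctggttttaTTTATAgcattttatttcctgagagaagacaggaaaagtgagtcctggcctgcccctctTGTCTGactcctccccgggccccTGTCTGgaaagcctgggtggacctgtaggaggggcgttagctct
The RefSeq start and the gene start of the count table are the same base for Aspn and Thbs2 and differ for the other 3. Fbn1 and Nid1 held GGGCGG, the core of the GC box, which 35.7% of 32851 RefSeq promoters held in a window of the same kind (300 bases, with the 50 after the start searched but not printed). Aspn, Ogn and Thbs2 held the TATA box letters TATAAA, found in 13.6% of promoters, at 126 or more bases before the start. The 2 matches of Ogn overlap each other. Nid1 and Ogn held GGAATG, the motif of TEAD factors, found in 14.7% of promoters. Thbs2 held the Smad motif CAGACA at 2 places, and 21% of promoters hold it. The AP-1 motif TGANTCA, found in 7.81% of promoters, was in none of these 5 windows. Nor was the E box letter string CAGGTG, found in 20.2%. No motif letters were shared by the 5, and a match is a description of sequence and not a site of binding.

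The small leucine-rich proteoglycans included Dcn, first of the members by mean level per length in KLRG1-negative libraries. Dcn encodes decorin, which coats collagen fibrils and binds TGF-beta (chromosome 10, 97479609 to 97518143, plus strand). KLRG1-negative libraries 1, 2 and 3 had 728, 1869 and 2029 CPM, and KLRG1-positive libraries 1, 2 and 3 had 6.70, 7.42 and 1.69 CPM. The groups lay far apart, with means of 1542 ± 709.5 and 5.27 ± 3.12 CPM (SD, n = 3 each) and a log2 fold change of -8.20 ± 0.84 (SE, adjusted p = 0.0217). With the replicate block the adjusted p was 0.0680, and over the 13 edgeR alternatives it ran from 0.00766 to 0.289. Lum, the gene of the fibril-spacing proteoglycan lumican, had 118, 77.3 and 234 CPM in KLRG1-negative libraries 1, 2 and 3. A single read was counted in all KLRG1-positive libraries together, so the level was 0 in 2 of them and 0.0444 CPM in library 3. The pooled KLRG1-negative level was 8233 times the KLRG1-positive one, with 95% counting limits of 1477 and 325223 (adjusted p = 0.0124). Dcn and Lum are neighbours on chromosome 10, 47.0 kb apart. Their other proteoglycan neighbours Kera and Epyc, chosen after their values were seen, were under 2 CPM in each library and at 0 in the KLRG1-positive ones.

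Aspn and Ogn form a second pair, 40.5 kb apart on chromosome 13. Aspn encodes asporin, a TGF-beta binding relative of decorin (49544443 to 49567565, plus strand). Its levels were 60.7, 25.6 and 75.6 CPM in KLRG1-negative and 0.169, 0 and 0.133 CPM in KLRG1-positive libraries (log2 fold change -8.97 ± 0.94 SE, adjusted p = 0.0227). Even its lowest KLRG1-negative library was over 100 times its highest KLRG1-positive one. Ogn encodes osteoglycin, also called mimecan (49608046 to 49624501, plus strand). It had 73.5, 81.2 and 154 CPM against 1.18, 0.0534 and 0.444 CPM, and its groups did not overlap (log2 fold change -7.52 ± 0.99 SE, adjusted p = 0.0379). With the block the adjusted p of Ogn was 0.0686, within a range of 0.016 to 0.350 over the edgeR alternatives. Ecm2 and Omd, leucine-rich genes of the same cluster chosen after their values were seen, averaged 12.2 and 5.89 CPM in the KLRG1-negative and 0.38 and 0.194 CPM in the KLRG1-positive libraries, and neither passed (adjusted p = 0.0813 and 0.104). The flanking genes Ippk and Nol8, likewise chosen afterwards, had log2 fold changes of -0.27 and -0.23 and did not pass (adjusted p = 0.71 and 0.877).

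Of the remaining proteoglycans of this family none passed. Prelp, which links basement membrane to connective tissue, had 45.9, 52.4 and 82.4 CPM against 5.01, 0 and 0.0444 CPM (adjusted p = 0.231). Nearly all of its KLRG1-positive reads came from library 1. Fmod, the collagen-binding fibromodulin gene, is 116 kb from Prelp on chromosome 1 and had its KLRG1-positive reads in library 2 alone. Its levels were 3.56, 12.3 and 27.7 CPM against 0, 2.08 and 0 CPM (adjusted p = 0.355). Bgn, which encodes biglycan, averaged 92.2 ± 46.4 CPM against 0.872 ± 1.34 CPM (SD, n = 3 each), with 2.42 CPM in KLRG1-positive library 1 (adjusted p = 0.0787). In all, 4 of the 7 genes of the family were lower, 0 higher, and 2 of the 4, Lum and Aspn, also passed with the block.

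The large proteoglycans were low in both populations. Vcan encodes versican, a hyaluronan-binding proteoglycan of provisional matrix. It had 9.07, 0 and 25.1 CPM in KLRG1-negative libraries and no count in the KLRG1-positive ones, where the pooled level was at least 210.0-fold lower by the floor given above. Because KLRG1-negative library 2 also had no count, Vcan was under the filter and was not tested. Hspg2 encodes perlecan, a heparan sulfate proteoglycan of basement membranes. It had 11, 6.47 and 2.98 CPM against 0.394, 0 and 0 CPM and did not pass (adjusted p = 0.157).

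Among the 11 genes of elastic fibres and microfibrils, 4 were lower and 7 did not pass. Fbn1 encodes fibrillin-1, the main microfibril protein (chromosome 2, 125300594 to 125507993, minus strand). Its levels were 58.4, 69.2 and 108 CPM in KLRG1-negative and 0.225, 0.374 and 0.133 CPM in KLRG1-positive libraries. The 3 libraries of each group lay close together, and the log2 fold change of -8.31 had the smallest adjusted p of the 14 genes (SE 0.54, adjusted p = 0.0102). Of its exon bases 20.1% overlap the gene model Gm9913, whose reads cannot be told apart without strand. Mfap5 encodes a microfibril-associated glycoprotein that binds fibrillin. It had 88.0, 152 and 219.6 CPM against 0.732, 0.534 and 0.178 CPM, with no overlap (log2 fold change -8.32 ± 0.69 SE, adjusted p = 0.0174). Fbln1, the fibulin-1 gene, had 60.9, 217 and 239.6 CPM against 0.45, 1.12 and 0.0444 CPM (log2 fold change -8.33 ± 1.15 SE, adjusted p = 0.041). KLRG1-negative library 1 was the lowest of its group for both. Efemp2 encodes fibulin-4, which brings lysyl oxidase to tropoelastin. Its levels were 21.5, 42.7 and 52.2 CPM against 2.93, 3.58 and 3.55 CPM (log2 fold change -3.53 ± 0.43 SE, adjusted p = 0.0311). It was counted at a like level in each KLRG1-positive library, 3.35 ± 0.368 CPM (SD, n = 3). With the block, Mfap5, Fbln1 and Efemp2 had adjusted p values of 0.0573, 0.0692 and 0.0608. Over the edgeR alternatives these 3 ran from 0.00341 to 0.277, 0.0207 to 0.339 and 0.0173 to 0.346.

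The other elastic fibre genes had non-overlapping groups and larger errors. Efemp1, the fibulin-3 gene, had 99.4, 136 and 115 CPM against 5.35, 0.16 and 0.178 CPM (adjusted p = 0.106). Mfap4, whose protein binds elastic fibres in lung, had 17.1, 73.1 and 104 CPM against 6.81, 0.0534 and 0.4 CPM (adjusted p = 0.228). In both genes KLRG1-positive library 1 stood above the other two. Eln, the elastin gene, had 22.7, 102 and 202 CPM against 2.14, 0.801 and 0.0888 CPM (log2 fold change -6.76 ± 1.34 SE, adjusted p = 0.0702). KLRG1-negative library 1 was the lowest of its group and KLRG1-positive library 1 the highest of its own. Fbln2, Fbln5 and Mfap2 averaged 192, 60.9 and 30.8 CPM against 1.41, 0.788 and 1.42 CPM (adjusted p = 0.0617, 0.149 and 0.135). All of the Fbln5 reads of the KLRG1-positive group were in library 1. Fbn2, a fibrillin of developing tissue, averaged 3.63 ± 1.93 CPM in KLRG1-negative libraries and had no count in the others, at least 69.9-fold lower against the floor (adjusted p = 0.0599).

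Adhesive glycoproteins held both very high and very low genes. Fn1 encodes fibronectin, which links cells to matrix through integrins (chromosome 1, 71585520 to 71653200, minus strand). It had 907, 475 and 896 CPM in KLRG1-negative and 98.5, 107 and 16.1 CPM in KLRG1-positive libraries. The groups did not overlap, yet KLRG1-positive library 3 was well under libraries 1 and 2, and the log2 fold change of -3.36 ± 0.74 (SE) did not pass with edgeR (adjusted p = 0.086, 0.0873 to 0.346 over the edgeR alternatives). DESeq2 gave Fn1 an adjusted p of 4.43e-05. Postn encodes periostin, a matricellular protein tied to type 2 inflammation. It had 633, 405 and 918 CPM against 9.01, 0.214 and 0.133 CPM (log2 fold change -7.72 ± 1.75 SE, adjusted p = 0.0916). KLRG1-positive library 1 held nearly all of the Postn reads of its group.

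The 6 adhesive genes included 2 that were lower, Tnxb and Thbs2. Tnxb encodes tenascin-X, which binds collagen (chromosome 17, 34670535 to 34719815, plus strand). It had 13.7, 38.0 and 17.9 CPM against 0.338, 0.107 and 0.133 CPM (log2 fold change -6.89 ± 0.76 SE, adjusted p = 0.0254). With the block the adjusted p of Tnxb was 0.0686, within 0.013 to 0.346 over the edgeR alternatives. Thbs2 encodes thrombospondin-2, an inhibitor of vessel growth (chromosome 17, 14665500 to 14694262, minus strand). It had 26.5, 7.10 and 45.7 CPM against 0.0563, 0 and 0.0444 CPM. With 2 reads in the KLRG1-positive group, the pooled ratio was 739 with 95% counting limits of 204 and 6105 (adjusted p = 0.0333). Its relative Thbs1 was among the few members at 10 CPM or more in KLRG1-positive libraries. Thbs1, which activates latent TGF-beta, had 65.9, 28.6 and 74.6 CPM against 35.5, 21.1 and 12.8 CPM. The groups overlapped, with KLRG1-positive library 1 above KLRG1-negative library 2 (log2 fold change -1.28 ± 0.51 SE, adjusted p = 0.302). Tnc, the tenascin-C gene of injured tissue, had 6.34, 3.63 and 0 CPM against 0.225, 1.39 and 0.533 CPM and also overlapped (adjusted p = 0.639).

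In the group of counter-adhesive and growth factor binding proteins, Ccn3 and Fstl1 were lower and the other 6 did not pass. Ccn3 is a cysteine-rich member of the CCN family (chromosome 15, 54745702 to 54754039, plus strand). Its levels were 51.7, 46 and 42.9 CPM in KLRG1-negative and 0, 0.0534 and 0.0888 CPM in KLRG1-positive libraries. The 3 KLRG1-negative libraries differed little, with a mean of 46.9 ± 4.44 CPM (SD, n = 3). On 3 reads in the KLRG1-positive group the pooled ratio was 917, with 95% counting limits of 313 and 4448 (adjusted p = 0.0123). Fstl1 encodes a secreted glycoprotein that binds BMP and TGF-beta ligands (chromosome 16, 37776873 to 37836514, plus strand). It had 206, 171 and 324 CPM against 1.91, 3.20 and 0.932 CPM, with no overlap (log2 fold change -6.86 ± 0.60 SE, adjusted p = 0.0183). With the block the adjusted p of Fstl1 was 0.0608, within 0.00373 to 0.277 over the edgeR alternatives.

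Sparc, whose protein binds collagen and loosens adhesion, was the highest of this group. It had 342, 867 and 1279 CPM against 28.2, 10.5 and 3.55 CPM (log2 fold change -5.88 ± 0.97 SE, adjusted p = 0.0531). KLRG1-negative library 3 was highest in one group and KLRG1-positive library 1 in the other. Igfbp6, which binds insulin-like growth factor 2, had 58.5, 238 and 181 CPM against 2.76, 0.481 and 0.266 CPM (adjusted p = 0.0505). Sparcl1, known from vessels, had 104, 77.5 and 128 CPM against 22.9, 1.55 and 0.133 CPM (adjusted p = 0.327). The Sparcl1 level differed more among the KLRG1-positive libraries than did that of Igfbp6. Ccn1 and Ccn2, immediate-early matricellular genes, averaged 168 ± 106 and 20.8 ± 7.83 CPM against 2.86 ± 4.69 and 0.628 ± 0.681 CPM (SD, n = 3 each; adjusted p = 0.169 and 0.124). For Ccn2, 23.2% of exon bases overlap Gm15270. Ccn5 was low in both groups, 4.04 against 0.732 CPM, and all of its KLRG1-positive reads were in library 1 (adjusted p = 0.635).

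Of the 6 crosslinking and procollagen processing genes, Pcolce was lower. It encodes the enhancer of the protease that trims procollagen (chromosome 5, 137605103 to 137613784, minus strand). Its levels were 54.2, 123 and 174 CPM against 2.7, 1.5 and 0.311 CPM (log2 fold change -6.29 ± 0.92 SE, adjusted p = 0.043). With the block the adjusted p of Pcolce was 0.111, within 0.0225 to 0.339 over the edgeR alternatives. The related Pcolce2 had 27.1, 27.2 and 33.4 CPM against 2.42, 0.0534 and 0 CPM (adjusted p = 0.196). Here too KLRG1-positive library 1 held most reads of its group. The lysyl oxidases had non-overlapping groups but none passed. Lox had 14.3, 25.9 and 166 CPM in KLRG1-negative libraries 1, 2 and 3 and no count in the others, so that its KLRG1-positive level was at least 1339.7-fold lower against the floor (adjusted p = 0.0775). The KLRG1-negative mean rested mainly on library 3. Loxl1, which crosslinks elastin, had 23.5, 54.9 and 76.2 CPM against 0.507, 0 and 0 CPM (adjusted p = 0.0574). Loxl2 and Loxl3 averaged 19.6 and 23.7 CPM against 0.695 and 0.29 CPM (adjusted p = 0.124 and 0.0542), and 11.6% of the exon bases of Loxl3 overlap Htra2.

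Basement membrane genes had the smallest median log2 fold change of the role groups with more than 2 genes, -4.09, with 1 of 6 genes lower and 5 that did not pass. Nid1 encodes nidogen-1, which bridges laminin and type IV collagen (chromosome 13, 13437551 to 13512269, plus strand). It had 192, 113 and 244 CPM in KLRG1-negative and 9.40, 11.7 and 14.5 CPM in KLRG1-positive libraries. Nid1 was lower by a log2 fold change of -3.94 ± 0.37 (SE, adjusted p = 0.0196), and its KLRG1-positive libraries were close to each other. Nid2, the gene of the related nidogen-2 (chromosome 14, 19751265 to 19811787, plus strand), had 27.0, 37.6 and 52.0 CPM against 21.1, 22.7 and 20.1 CPM. The groups did not overlap but came within a few CPM, and the difference did not pass (log2 fold change -0.87 ± 0.31 SE, adjusted p = 0.24). The Nid2 level was even across KLRG1-positive libraries, at 21.3 ± 1.30 CPM (SD, n = 3), and 8.45% of its exon bases overlap Rtraf. Lamc1 encodes the laminin gamma-1 chain, shared by most laminins (chromosome 1, 153218922 to 153332786, minus strand). It had 7.62, 38.3 and 6.92 CPM against 13.1, 45.6 and 39.5 CPM. Lamc1 was the only member with a positive log2 fold change, 0.89 ± 0.82 (SE), and its groups overlapped (adjusted p = 0.712, 0.17 to 0.979 over the edgeR alternatives). Of the chains that pair with it, Lamb1, Lama4 and Lama2 averaged 58.0, 45.4 and 15.1 CPM against 0.315, 2.39 and 0.108 CPM (adjusted p = 0.0574, 0.0542 and 0.0641). Whether Lamc1 differed from these chains in its difference between populations was not tested.

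**Figure D3:**
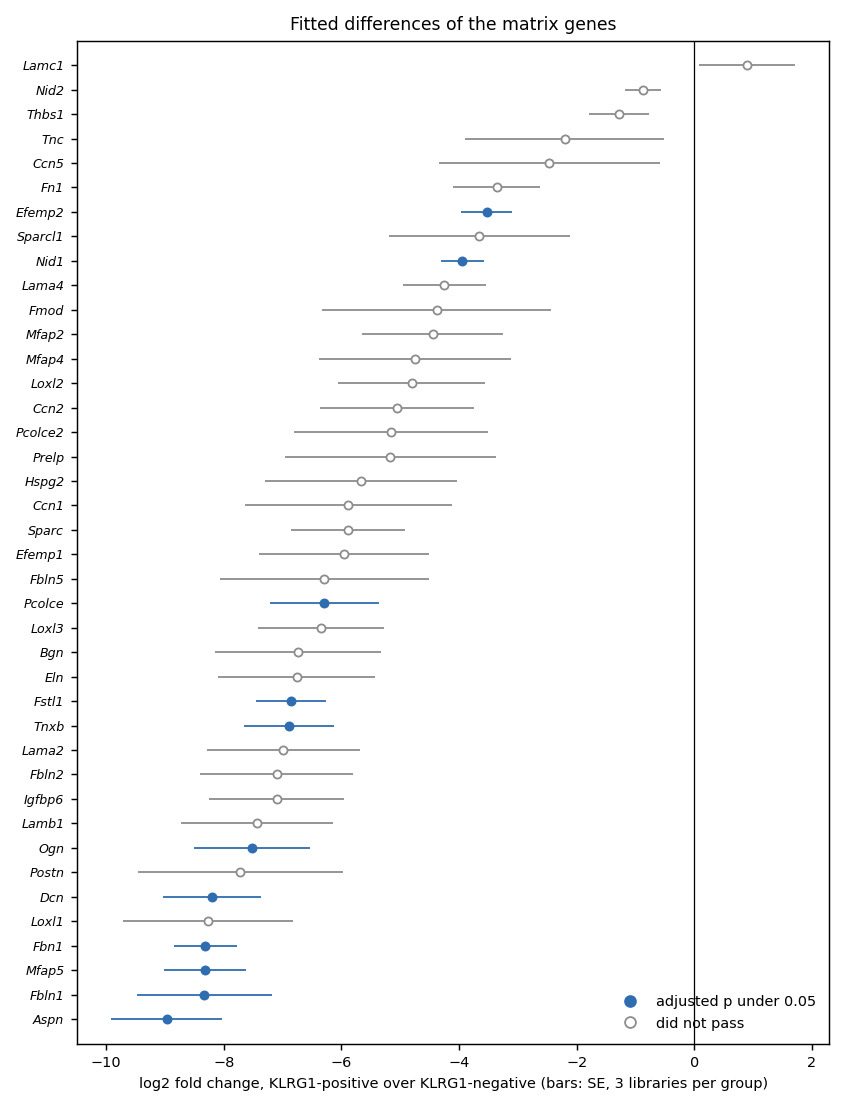
Fitted log2 fold change of each matrix gene, KLRG1-positive over KLRG1-negative, with its SE (3 libraries per group); filled points had an adjusted p under 0.05. Vcan, Fbn2, Lox, Lum, Thbs2 and Ccn3, with 3 or fewer counts in the KLRG1-positive group, are left out, and Lamc1 is the only point to the right of 0.

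Levels of different genes were compared per length, as CPM per kilobase of gene model. In KLRG1-negative libraries the order of mean levels began with Dcn at 264 ± 122, Sparc at 219 ± 124, Igfbp6 at 143 ± 82.4, Ccn1 at 83.1 ± 52.5, Postn at 74.9 ± 29.6 and Fn1 at 65.0 ± 21 CPM per kilobase (SD, n = 3). Within each of these libraries the first 3 kept this order, Dcn over Sparc over Igfbp6. The order of Ccn1, Postn and Fn1 changed between libraries. In KLRG1-positive libraries the order began with Fn1 at 6.32 ± 4.29, Nid2 at 4.12 ± 0.252, Lamc1 at 3.96 ± 2.09, Thbs1 at 3.82 ± 1.89 and Sparc at 3.71 ± 3.35 CPM per kilobase. The order of these genes changed between the KLRG1-positive libraries, though Fn1 was over Sparc in each. Dcn, first in one order, was number 14 in the other at 0.903 ± 0.535 CPM per kilobase. Ratios between members within a library do not depend on the sum of the set. Within a library, the per-length level of Fn1 was 0.623, 0.127 and 0.221 times that of Dcn in KLRG1-negative libraries 1, 2 and 3, and 7.34, 7.20 and 4.77 times it in the KLRG1-positive ones. For Nid2 over Dcn the ratios were 0.0418, 0.0227 and 0.0289 against 3.56, 3.45 and 13.5. For Nid2 over Nid1 they were 0.188, 0.447 and 0.287 against 3.01, 2.59 and 1.86. Each of these 3 ratios was higher in every KLRG1-positive library than in any KLRG1-negative one. Lum over Dcn went the other way, with 0.385, 0.0986 and 0.275 against 0, 0 and 0.0628. The ratios were not tested.

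**Figure D4:**
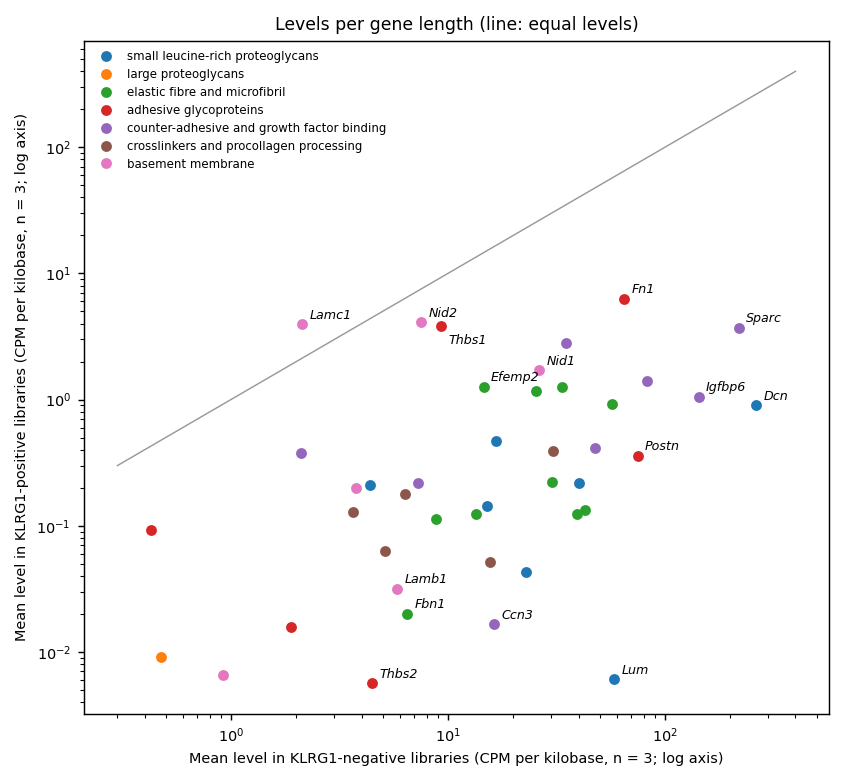
Mean level per gene length in KLRG1-positive (vertical) against KLRG1-negative libraries (horizontal), in CPM per kilobase on log axes, 3 libraries per group; the line marks equal levels. Lamc1 lies above the line, Nid2 and Thbs1 lie near it, and Dcn and Sparc are far to the right; Vcan, Fbn2 and Lox, at 0 in KLRG1-positive libraries, are not drawn.

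Many members had the same order among the libraries of a group. Within the KLRG1-negative group, library 3 was the highest for 36 of 46 genes, where it was the highest for 35.6% of all genes tested. Library 1 was the lowest for 26, beside 36.1% of all genes. The fibroblast marker sums given above had the same order, lowest in library 1 and highest in library 3. Most of each sum was the collagen gene Col3a1, at 2146, 2849 and 5763 CPM. Col1a1, Col1a2, Prrx1 and Pi16 had this order too, while Scara5, Tcf21, Pdgfrb and Twist2 were highest in library 2 and Pdgfra was lowest there. Pdgfrb overlapped between the populations, at 10.2, 43.5 and 21.1 against 20.8, 5.77 and 13.0 CPM (edgeR adjusted p = 0.622). Of 9 fibroblast markers tested, 6 were lower in KLRG1-positive libraries, and 1, Scara5, was lower with the replicate block. Prrx1 and Twist2 were at 0 in the KLRG1-positive libraries. The mesothelial markers summed to 120.0, 901 and 677 CPM in KLRG1-negative and 11.3, 16.0 and 7.01 CPM in KLRG1-positive libraries. None of the 4 mesothelial markers passed with edgeR, and DESeq2 called 4 lower. The part of either cell type in the levels of the matrix genes was not tested. Some groups had another order: adhesive genes summed to 1653, 957 and 1952 CPM and basement membrane genes to 326, 301 and 447 CPM in KLRG1-negative libraries 1, 2 and 3. Library 2 was the lowest for both, as it was for the large proteoglycans (20, 6.47 and 28.1 CPM).

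Within the KLRG1-positive group, library 1 was the highest for 27 genes, beside 37.1% of all genes tested. Elastic fibre genes summed to 27.8, 7.96 and 4.97 CPM in KLRG1-positive libraries 1, 2 and 3, and counter-adhesive genes to 67.6, 16.5 and 5.06 CPM. Basement membrane genes did not share this order, at 47.5, 82.9 and 75.9 CPM. Library 1 had the highest summed markers of several lung cells in both groups. Single genes carried some of these sums. In library 1, Sftpc made up 366 and Lyz2 241 CPM of the KLRG1-negative epithelial and macrophage sums. For the KLRG1-positive group they made up 330 and 215 CPM. Epcam was lowest in library 1 of either group. Adgre1, Csf1r, Cd68 and Mrc1 were highest in KLRG1-positive library 2, and Marco and Lyz2 in library 1. In the KLRG1-negative group Csf1r was highest in library 2, Mrc1 in library 3 and the others in library 1. In KLRG1-negative libraries 1, 2 and 3, endothelial markers summed to 477, 132 and 239 CPM, epithelial markers to 435, 75.8 and 63.3 CPM, mural markers to 16.1, 9.58 and 5.57 CPM and macrophage markers to 356, 156 and 86.2 CPM. The matrix members did not share this order in that group, where library 1 was the highest for 4 of 46. Endothelial markers summed to 289, 159 and 95.7 CPM in KLRG1-positive libraries 1, 2 and 3, and Cdh5, Tek, Cldn5 and Emcn were at 0 in library 3. Pecam1 alone was 146, 143 and 95.4 CPM of these sums. Epithelial markers summed to 379.6, 8.71 and 9.54 CPM, with Nkx2-1 at 0 in each library, mural markers to 5.69, 1.17 and 0.755 CPM, and fibroblast markers to 44.5, 22.4 and 16.7 CPM. Macrophage markers summed to 283, 221 and 47.0 CPM and platelet markers to 18.8, 16.3 and 3.91 CPM. None of the 7 endothelial, 4 epithelial, 2 mural, 6 macrophage or 3 platelet markers tested passed between the populations with edgeR. At an unadjusted p under 0.05, 1 epithelial and 2 macrophage markers were lower, and DESeq2 called 1 epithelial and 1 macrophage marker lower. Their part in the matrix gene levels was not tested. Without library 1, Bgn, Prelp, Fbln2, Fbln5, Efemp1, Postn, Sparc, Ccn1, Igfbp6, Loxl1, Loxl3 and Pcolce2 also passed as lower, while Fbln1, Efemp2, Thbs2 and Pcolce no longer did. Nid2, Thbs1 and Lamc1 did not pass with or without it.

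**Figure D5:**
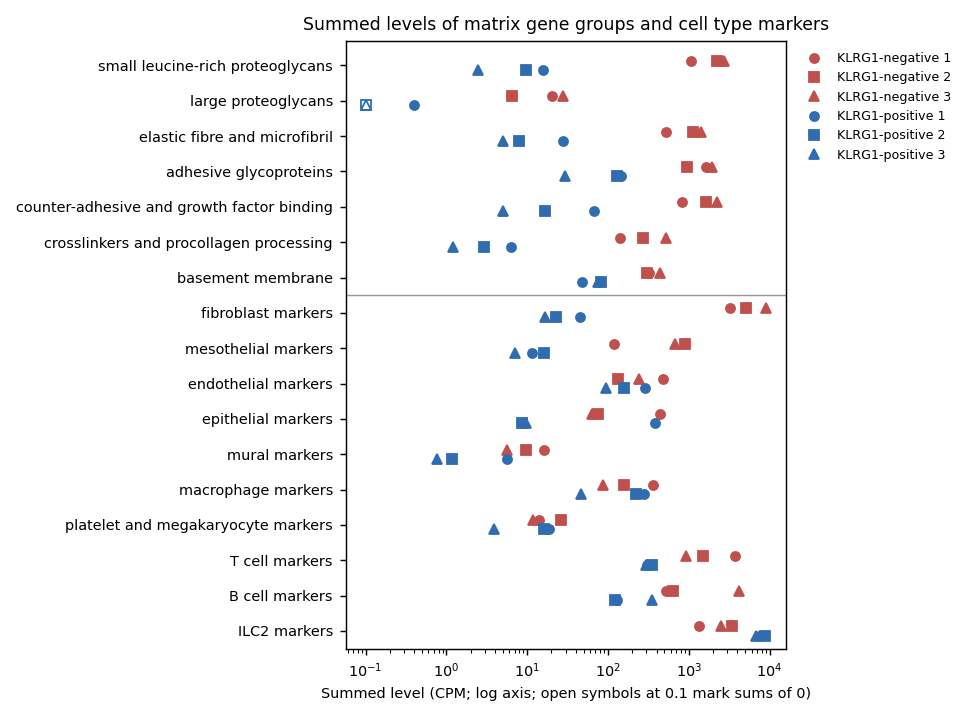
Summed level of each matrix gene group and of each marker list in each library, in CPM on a log axis; symbol shapes mark the replicate number and open symbols mark sums of 0. Summed matrix groups and fibroblast markers lie far apart between the populations, and endothelial and macrophage sums overlap. In KLRG1-positive libraries 2 and 3 the endothelial sum is mostly Pecam1. Library 1 is the highest of its own group in both populations for the sums of endothelial, epithelial, mural and macrophage markers.

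Other matrix genes were described from lists of 45 glycoproteins, 12 collagen processing enzymes and 21 receptors. Of 35 other glycoproteins tested, 5 were lower (Podn, Srpx2, Dpt, Mgp and Ltbp4), 0 higher and 30 did not pass. At an unadjusted p under 0.05, 23 were lower and 1 higher, and DESeq2 called 21 lower and 1 higher. Their median log2 fold change was -2.95, beside -6.29 for the 45 members tested and -0.05 for all genes. Podn, the podocan gene of the leucine-rich family, had 12.2, 27.7 and 38.2 CPM against 0.0563, 0.0534 and 0 CPM (adjusted p = 0.0217, and 0.0624 with the block, within 0.00745 to 0.316 over the edgeR alternatives). Srpx2, which binds the urokinase receptor, had 8.85, 7.18 and 12.3 CPM against 0.0563, 0 and 0 CPM (adjusted p = 0.0336, and 0.0784 with the block, within 0.0207 to 0.346). Both were nearly absent from the KLRG1-positive libraries. The proteoglycan core gene Srgn, which encodes the serglycin of leukocyte granules and was chosen after its values were seen, stood the other way round. It had 349, 505 and 517 CPM in KLRG1-negative and 834, 1118 and 1103 CPM in KLRG1-positive libraries, without overlap, and did not pass with edgeR (log2 fold change 1.16 ± 0.23 SE, adjusted p = 0.0689, with 0.000262 by DESeq2).

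Of the 12 collagen processing enzymes 1 was lower, 0 higher and 11 did not pass. An unadjusted p under 0.05 was found for 8 lower and 0 higher, and DESeq2 called 7 lower and 0 higher. The gene that passed was Adamts2, which removes procollagen amino-propeptides, at 4.12, 52.4 and 27.2 CPM against 0.0563, 0.0534 and 0 CPM (adjusted p = 0.0448, and 0.0685 with the block, within 0.0225 to 0.350 over the edgeR alternatives). Over this list the log2 fold change had a median of -2.55. Of 20 matrix receptors tested 1 was lower, 0 higher and 19 did not pass, and the median was -1.05. An unadjusted p under 0.05 was found for 8 lower and 3 higher, and DESeq2 called 8 lower and 1 higher. Dag1, the gene of the laminin receptor dystroglycan, had 82.3, 91.9 and 141 CPM against 15.0, 14.4 and 23.8 CPM and was lower (log2 fold change -2.57 ± 0.34 SE, adjusted p = 0.0379). Unlike most matrix genes it had over 10 CPM in every KLRG1-positive library. Itgb3, the integrin beta-3 chain that pairs with the alpha-v chain to bind fibronectin and other matrix proteins, was chosen after its values were seen. It had 89.3, 209.6 and 201 CPM against 722, 756 and 603 CPM, with no overlap (log2 fold change 2.06 ± 0.35 SE, adjusted p = 0.0566, with 5.74e-06 by DESeq2).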

How the data were processed

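Raw counts of reads per gene were deposited by the authors, made with featureCounts per the file headers: Ensembl release 90 gene models of build GRCm38, no strand, multi-mapping (26.3 to 32.3%) and ambiguous reads (2.49 to 2.81%) left out. The submitters' processing notes name bcl2fastq, STAR 2.4.1d and Subread 1.5.2. Per the labels' protocols, cDNA came from a SMARTer low-input kit and was tagged with Nextera XT. Gene length is another column of the deposited table and was used for levels per kilobase alone. Coordinates are those of the table; 42 members have the same start and end in GENCODE M21, which gave the symbols.

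From these counts, edgeR 4.0.16 (R 4.3.3) tested 15197 genes that passed filterByExpr by group, with TMM scaling, a robust quasi-likelihood F test (two-sided) and Benjamini-Hochberg adjustment over all of them, at a threshold of 0.05. The biological coefficient of variation was 0.631. SE is that of the log2 fold change, from the F statistic. Counting intervals (95%, exact conditional binomial) and the floor of 3 counts cover counting error alone, because reads of amplified cDNA need not be separate molecules. DESeq2 1.42.0, other scalings, no filter, a replicate block and leaving out libraries were the alternatives, and the 13 fitted with edgeR are those without DESeq2. The code was tested on simulated data. Libraries of a group differed by far more than sampling noise (chi-square over degrees of freedom 91.2 to 218), so none was counted as the same library deposited again; the check does not tell whether they share a source.

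Pairing was checked on deviations from the group means: same-numbered libraries correlated at 0.38, 0.34 and 0.19 across genes and others at -0.32 to 0.056. Libraries of one number were therefore read as paired, which comes from the data and not the labels. The main edgeR test and its SE leave this pairing out. Only the alternative fits with the replicate block take it up.

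The members and all lists were chosen with earlier results of these data known. Values by library are given for members that passed whose higher group averaged at least 10 CPM, the 2 highest per length of each role group and population, and members with a positive fold change or at least 10 CPM in KLRG1-positive libraries. Values by library of Fmod, Eln, Tnc and Lox are given outside this rule and were chosen after they were seen. Of the other lists, up to 2 higher and 2 lower genes are named. Motifs were searched on both strands of RefSeq promoters (GRCm38.p6).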

Additional observations from a re-analysis of the deposited data

How the results depend on the processing

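Scaling by DESeq2 size factors or by library size alone left 14 members lower and 0 higher. No member was higher at an adjusted p under 0.05 in any fit. With DESeq2, 38 members, 36 other matrix genes and 1377 genes in all were lower and 2 other matrix genes and 346 genes in all were higher, where edgeR gave 14, 7 and 184 lower and 0 and 19 higher. Without the low-count filter the counts lower were 23, 13 and 282 and those higher 2 and 37. Leaving out libraries gave 0 to 22 members, 0 to 11 other matrix genes and 0 to 168 genes lower, and 0 to 1 other matrix genes and 0 to 5 genes higher. At an unadjusted p under 0.05 these fits had 32 to 42 members lower and 0 to 1 higher, beside 1159 to 1779 and 406 to 1048 genes in all. The median log2 fold change of the members ran from -8.52 to -5.35 when libraries were left out. No member changed direction. The cause of these differences was not tested.

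With the replicate block, edgeR called 6 members, 2 other matrix genes and 53 genes lower and 0 genes higher, and DESeq2 called 41, 40 and 1697 lower and 3 other matrix genes and 609 genes higher. Apart from the calls given beside their genes and that of Dpt and Mgp (adjusted p = 0.0549 and 0.12 with the block), the block changed no edgeR call among the members or the other matrix genes. With DESeq2 it added Fbln5, Fmod and Ccn5 to the members called lower. Depth limits statements on members with 3 or fewer counts in the KLRG1-positive group, for which a counting interval or a bound is given in place of a fold change.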
